A study of Homo sapiens with 2 samples.

Results

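The genes named ZBTB, ZSCAN, ZKSCAN and ZFP encode C2H2 zinc finger proteins, and their transcripts were examined in maps of where the RNA-binding proteins ZC3H7B and ZC3H7A contacted RNA. Members were picked out by symbol, as rows of either table named ZBTB, ZSCAN, ZKSCAN or ZFP followed by a number and at most 1 letter. This rule was set with earlier results of these data known. ZFP36, which encodes a CCCH zinc finger protein, was left out. There were 64 such genes among 10145 genes listed in either table, made up of 29 ZBTB, 15 ZSCAN, 6 ZKSCAN and 14 ZFP genes. RefSeq holds 87 symbols of this pattern (41 ZBTB, 21 ZSCAN, 7 ZKSCAN and 18 ZFP). The 23 symbols without a row in either table used here include ZBTB16, a repressor known from leukemia fusions, ZBTB33, which binds methylated DNA, and ZFP42, a marker of pluripotent cells. Symbols were matched as written, so a gene listed under an older name would count as absent.

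C2H2 zinc finger proteins bind DNA through arrays of short fingers that each hold a zinc ion between cysteines and histidines. The families differ in the domain in front of the array. A BTB domain, as in ZBTB proteins, pairs the protein and binds corepressors such as NCOR1 and BCOR, while a SCAN domain pairs SCAN proteins with each other. A KRAB domain, which most ZKSCAN proteins carry beside SCAN and many ZFP proteins carry alone, recruits the corepressor TRIM28. The ZFP name came from mouse nomenclature and does not mark a shared domain beyond the fingers.

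PAR-CLIP, which crosslinks a protein to RNA that carries a light-sensitive nucleoside before immunoprecipitation, was carried out in HEK293 cells, a human embryonic kidney line, with Flag/HA-ZC3H7B in 1 library and Flag/HA-ZC3H7A in the other. In both, the tagged protein was overexpressed from a doxycycline-induced gene (1 µg/mL for 24 h), RNA was labelled with 100 µM 4-thiouridine for 16 h, and crosslinks were made with light of 365 nm. A crosslink is read as a T-to-C conversion, and overlapping reads form a cluster. No untagged control and no second library were analysed here. Differences between the proteins therefore have no replicate check and were not tested, and the proteins cannot be told apart from their libraries.

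The ZC3H7B library held 2409465 reads on genes, made of 1212989 distinct reads in 99805 clusters, and the ZC3H7A library 3779662 reads, made of 300342 distinct reads in 51808 clusters. A read was thus counted 1.99 times on average in the ZC3H7B library and 12.6 times in the ZC3H7A library. The 95% intervals given are exact and describe the error of counting alone. Copies made by PCR are not independent molecules, nor are clusters of 1 transcript, so the true error is wider. Of 8 genes known in HEK293 cells, 3 had a cluster in either library (VIM, KRT18 and NEFL), and of 7 genes of other cell types none had. Having a cluster is not the same as being expressed.

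Most of the zinc finger genes had clusters for both proteins. Of the 64 genes, 54 (84.4%) were listed in both libraries, 6 only for ZC3H7B and 4 only for ZC3H7A. Over all genes the share listed in both was 71.1%, and over 355 ZNF genes, the largest group of C2H2 genes, it was 80.8%. The members also had more reads than the median gene, and the part of read number in their sharing was not tested. The median member had 245 reads in 15.5 clusters in the ZC3H7B library, where the median gene had 82 reads in 7 clusters. In the ZC3H7A library the median member had 161 reads in 5 clusters, against 135.5 reads in 4 clusters for the median gene. Together the members took 1.10% of reads (1.09 to 1.12%) in the ZC3H7B library and 0.994% (0.984 to 1.00%) in the ZC3H7A library.

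Genes listed for a single protein had few reads. Those listed only for ZC3H7B were ZBTB8B with 60 reads in 8 clusters, ZBTB40 with 59 reads in 7, and ZFP2, ZFP69, ZSCAN23 and ZSCAN1 with 5 to 12 reads in 1 cluster each. ZSCAN1 falls outside the naming rule and was added after its values were seen. Those listed only for ZC3H7A were ZFP41 with 63 reads in 2 clusters, ZBTB17, which encodes the MYC partner MIZ1, with 45 reads in 1 cluster, ZBTB3 with 32 reads in 1 cluster and ZBTB45 with 21 reads in 1 cluster. Absence from a table means that no cluster was called, and such a gene may still have had reads. The lowest read sum of any listed gene was 4 in the ZC3H7B library and 5 in the ZC3H7A library.

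**Figure D1:**
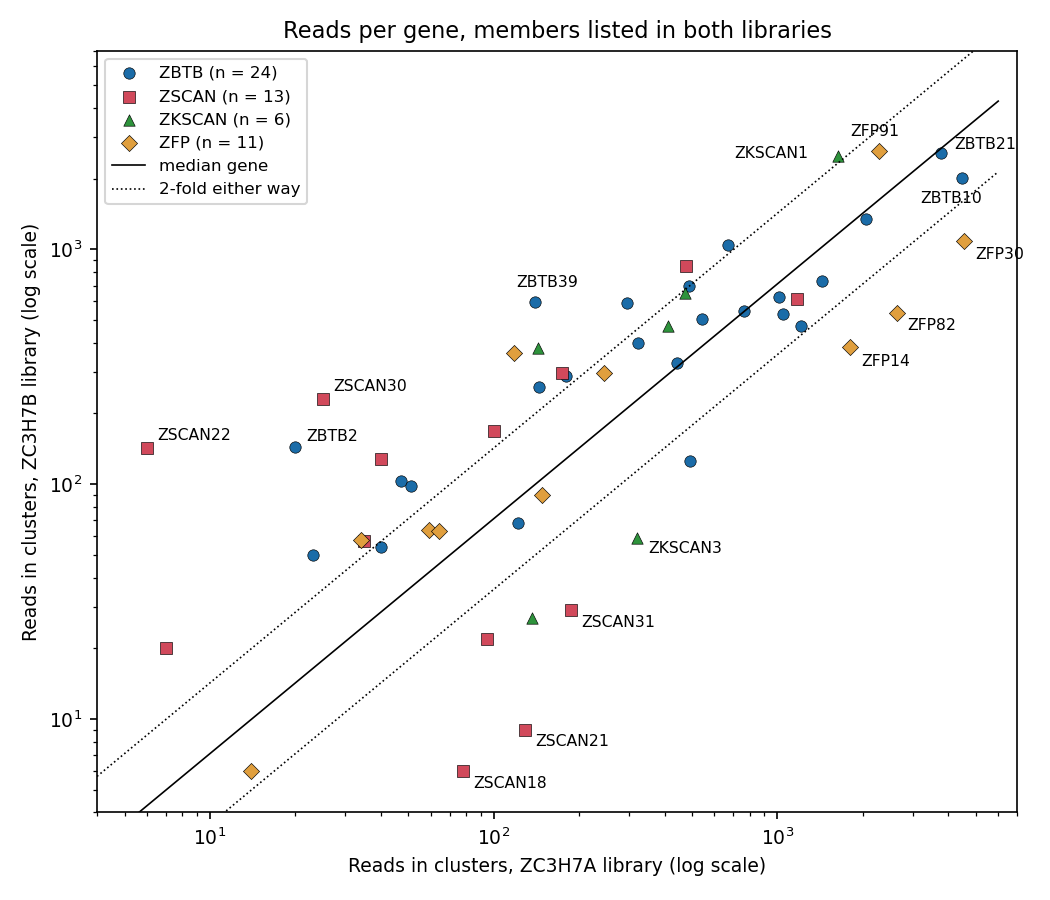
Reads in clusters of the 54 members listed in both libraries, ZC3H7B on the vertical and ZC3H7A on the horizontal log axis, with 1 point per gene. The solid line marks the ratio of the median gene and the dotted lines 2-fold either way. ZBTB21 lies close to the solid line, ZSCAN22, ZSCAN30 and ZBTB2 far above it, and ZSCAN18 and ZSCAN21 far below it.

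Reads per gene were compared as the log2 ratio of ZC3H7B over ZC3H7A, scaled to a median of 0 over the 7168 genes that both tables list and that have 20 or more reads in all. The term higher in a library is kept for genes whose whole interval lay beyond 2-fold. Reads are not divided by transcript length, so they set 1 gene against itself in the other library and are no ranking of binding. All 54 members listed in both could be compared. Of these, 12 (22.2%) were higher in the ZC3H7B library, where the background over all genes was 18.2%, and 9 (16.7%) were higher in the ZC3H7A library, where it was 18.0%. Both shares lay near the background. The remaining 33 members were not called either way. The median ratio of the members was 0.69, with quartiles of -0.48 and 1.31, beside 0.00 for all genes and -0.19 for ZNF genes. Across the 54 members log2 reads in the libraries had a Pearson's r of 0.74 and reads a Spearman's rho of 0.81, given as a description since all points share the same pair of libraries.

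Counted in distinct reads, 5 members were higher in the ZC3H7B library (background 7.28%) and 5 in the ZC3H7A library (background 10.1%). All 10 of these were called in the same direction with reads. The median ratio of the members was 0.66 in this count. The members had 13766 distinct reads in the ZC3H7B library and 3053 in the ZC3H7A library, so intervals in this count are wider. By mean reads per cluster the median ratio was 0.14, and by number of clusters 0.33.

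ZBTB genes formed the largest family, with 24 genes compared and a median ratio of 0.59. ZBTB10, a repressor at GC-rich promoters, had the most reads of all members summed over both libraries, with 2017 reads in 49 clusters in the ZC3H7B library and 4460 reads in 43 clusters in the ZC3H7A library. Its ratio of -0.65 (-0.73 to -0.58) lay within 2-fold. ZBTB21, a transcriptional repressor, had 2566 and 3783 reads in the ZC3H7B and ZC3H7A libraries, a ratio of -0.07 (-0.14 to 0.01). ZBTB18, a repressor with a role in brain development, had 1351 reads in the ZC3H7B library and 2060 in the ZC3H7A library, at -0.12 (-0.22 to -0.02). The intervals of ZBTB21 and ZBTB18 thus lay close to the median gene, and that of ZBTB10 below it. ZBTB6 stood at -0.48 (-0.61 to -0.35), with 733 reads in the ZC3H7B library and 1435 in the ZC3H7A library. ZBTB41 stood at -0.87 (-1.03 to -0.72), with 470 reads for ZC3H7B and 1210 for ZC3H7A. ZBTB43 lay on the other side, with 1045 reads in the ZC3H7B library and 672 in the ZC3H7A library, at 1.13 (0.99 to 1.27).

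In the ZBTB family 5 of 24 genes (20.8%, background 18.2%) were higher in the ZC3H7B library and 1 (4.17%, background 18.0%) in the ZC3H7A library. ZBTB2, a repressor in the p53 pathway, had 144 reads in 10 clusters in the ZC3H7B library and 20 reads in 1 cluster in the ZC3H7A library, a ratio of 3.34 (2.66 to 4.09). ZBTB39 had 598 reads in 32 clusters in the ZC3H7B library and 140 reads in 5 clusters in the ZC3H7A library, a ratio of 2.59 (2.32 to 2.86). ZBTB26 had 103 reads for ZC3H7B and 47 for ZC3H7A, at 1.62 (1.11 to 2.15). Only ZBTB39 among the 5 was still called with distinct reads, at 2.49 (1.75 to 3.35), with 351 distinct reads in the ZC3H7B library and 15 in the ZC3H7A library. The other called genes were ZBTB4, which binds methylated CpG, at 1.50 (1.29 to 1.70), and ZBTB5 at 1.34 (1.04 to 1.64). ZBTB8A was the gene higher in the ZC3H7A library, with 126 reads in the ZC3H7B library and 493 in the ZC3H7A library, a ratio of -1.48 (-1.77 to -1.19). Its ratio was -0.83 (-1.44 to -0.18) with distinct reads, no longer called. ZBTB4 and ZBTB8A fall outside the naming rule and were named because they were called.

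ZSCAN genes were spread the widest, with ratios between -3.35 and 5.06 and a median of 1.25 over 13 genes. Both ends rested on few reads in 1 of the libraries. ZSCAN22 had 142 reads in 11 clusters in the ZC3H7B library, all 11 in the 3' UTR, against 6 reads in 1 cluster in the ZC3H7A library. With distinct reads (76 in the ZC3H7B library and 2 in the ZC3H7A library) its ratio was 3.19 (1.29 to 6.26). ZSCAN30 had 230 reads in 16 clusters in the ZC3H7B library and 25 reads in 2 clusters in the ZC3H7A library, a ratio of 3.69 (3.10 to 4.35). ZSCAN32 had 128 reads in 9 clusters in the ZC3H7B library and 40 reads in 1 cluster in the ZC3H7A library, a ratio of 2.17 (1.65 to 2.72), but -0.02 by mean reads per cluster. Of the 13 genes, 4 (30.8%, background 18.2%) were higher in the ZC3H7B library. ZSCAN29 was the best covered of these, with 847 reads there and 475 in the ZC3H7A library, at 1.33 (1.16 to 1.49).

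At the low end, 3 of 13 ZSCAN genes (23.1%, background 18.0%) were higher in the ZC3H7A library. ZSCAN21, which binds the promoter of the alpha-synuclein gene, had 9 reads in 1 cluster in the ZC3H7B library and 129 reads in 3 clusters in the ZC3H7A library, a ratio of -3.35 (-4.51 to -2.38). It had 7 distinct reads in each library, and its ratio in that count was -2.06 (-3.80 to -0.32), not called. ZSCAN18 had 6 reads in 1 cluster in the ZC3H7B library and 78 reads in 4 clusters in the ZC3H7A library, at -3.21 (-4.70 to -2.02). ZSCAN31 had 29 reads in the ZC3H7B library and 187 in the ZC3H7A library, each in 3 clusters in the 3' UTR, at -2.20 (-2.81 to -1.63). ZSCAN16 stood at -1.62 (-2.36 to -0.94) and was not called. ZSCAN12, the family's gene with the most reads, had 615 reads in the ZC3H7B library and 1173 in the ZC3H7A library, at -0.44 (-0.58 to -0.30).

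All 6 listed ZKSCAN genes were found in both libraries, with a median ratio of 0.81. Of the 6, 2 (33.3%, background 18.2%) were higher in the ZC3H7B library and 2 (33.3%, background 18.0%) in the ZC3H7A library. ZKSCAN1, whose locus is known for an abundant circular RNA, had 2492 reads in 56 clusters in the ZC3H7B library and 1637 reads in 37 clusters in the ZC3H7A library. Its ratio of 1.10 (1.01 to 1.19) just passed the bar and was 0.73 (0.51 to 0.97) with distinct reads, below it. ZKSCAN2 had 381 reads in 30 clusters in the ZC3H7B library and 143 reads in 5 clusters in the ZC3H7A library. It stood at 1.91 (1.63 to 2.19), and at 2.01 (1.24 to 2.91) with distinct reads, called in both counts. ZKSCAN8 at 0.95 (0.77 to 1.12) and ZKSCAN5 at 0.68 (0.49 to 0.88) were not called. ZKSCAN3, a repressor of autophagy genes, went the other way with 59 reads in the ZC3H7B library and 321 in the ZC3H7A library, at -1.95 (-2.38 to -1.55). ZKSCAN4, its close relative, had 27 reads in the ZC3H7B library and 137 in the ZC3H7A library, at -1.85 (-2.50 to -1.25). Neither ZKSCAN3 nor ZKSCAN4 was called with distinct reads, at -1.20 and -1.67. The 3 clusters of ZKSCAN4 lay in the 3' UTR in the ZC3H7B library and in coding sequence in the ZC3H7A library.

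ZFP genes held the best covered members that were higher in the ZC3H7A library. Of 11 ZFP genes compared, 1 (9.09%, background 18.2%) was higher in the ZC3H7B library and 3 (27.3%, background 18.0%) in the ZC3H7A library. ZFP30, a KRAB zinc finger gene, had 1087 reads in the ZC3H7B library and 4563 in the ZC3H7A library, each in 38 clusters, at -1.58 (-1.67 to -1.48). ZFP82 had 534 reads in 27 clusters in the ZC3H7B library and 2645 reads in 24 clusters in the ZC3H7A library, at -1.82 (-1.95 to -1.68). ZFP14 had 383 reads in 21 clusters in the ZC3H7B library and 1809 reads in 20 clusters in the ZC3H7A library, at -1.75 (-1.91 to -1.59). All 3 were also called with distinct reads, at -1.30 (-1.50 to -1.10), -1.44 (-1.72 to -1.17) and -1.46 (-1.78 to -1.13). None of the 3 was called by mean reads per cluster (-0.60, -1.01 and -0.84). ZFP91, a ubiquitin ligase of NF-kappa B signalling, had 2631 reads in the ZC3H7B library and 2289 in the ZC3H7A library, at 0.69 (0.61 to 0.78). ZFP1 was the family's gene higher in the ZC3H7B library, with 363 reads in 17 clusters there and 118 reads in 6 clusters in the ZC3H7A library, at 2.11 (1.81 to 2.43). With distinct reads ZFP1 stood at 1.41 (0.71 to 2.20), not called.

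**Figure D2:**
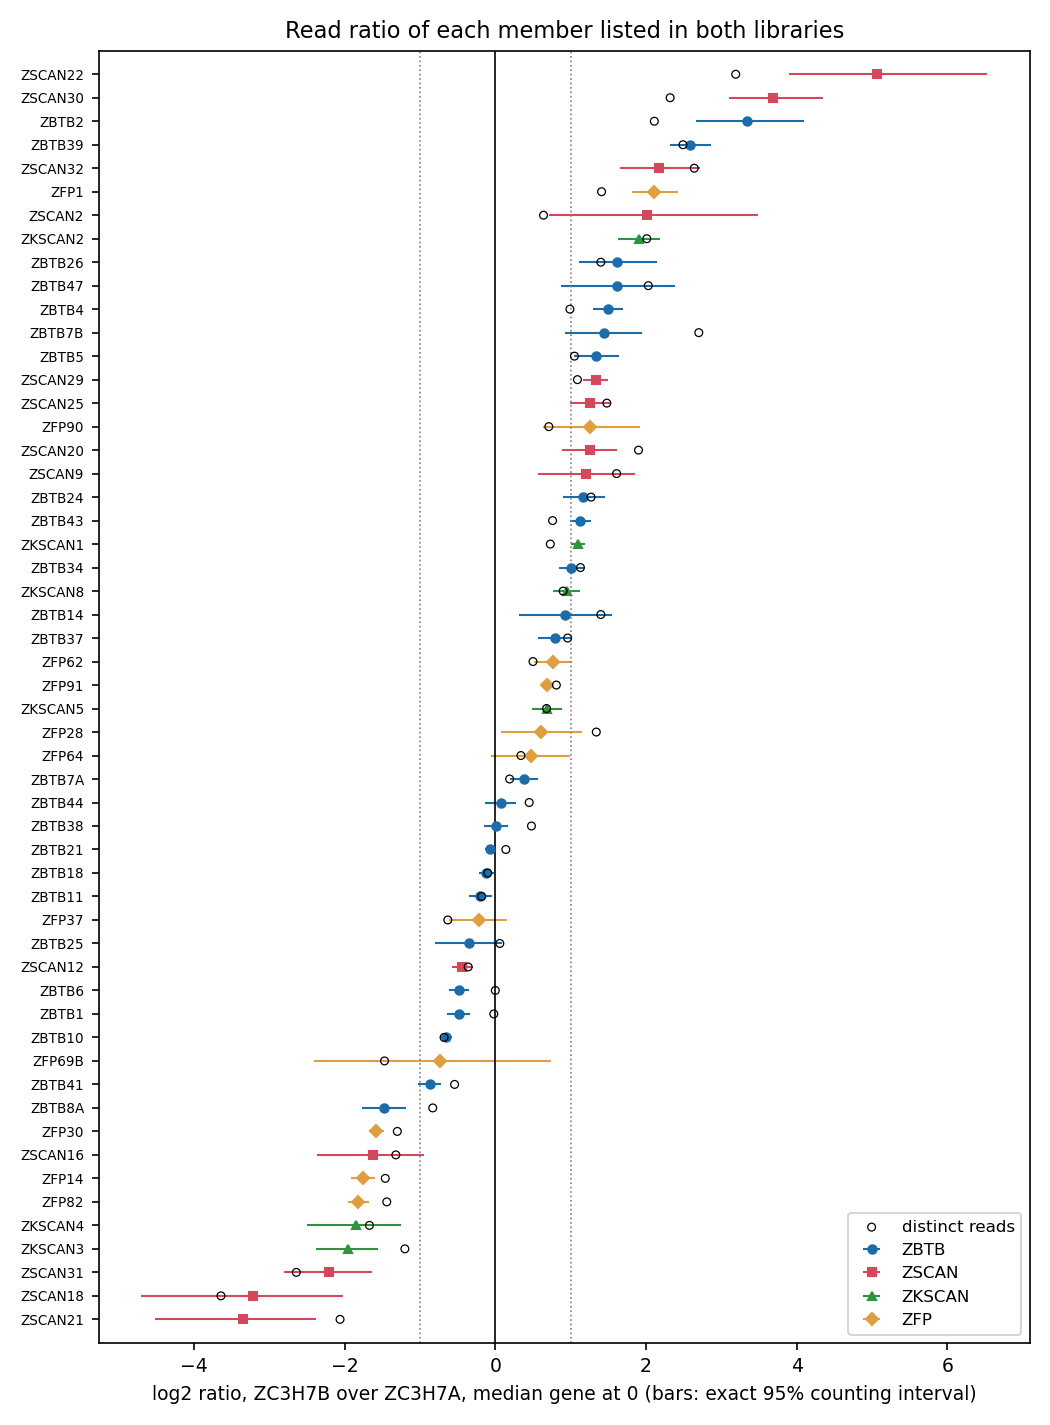
Log2 ratio of reads, ZC3H7B over ZC3H7A, for the 54 members listed in both libraries, with the median gene at 0 and dotted lines at 2-fold either way. Filled points with bars give the ratio and its exact 95% counting interval, and open circles the ratio of distinct reads. ZSCAN genes lie at both ends, from -3.35 for ZSCAN21 to 5.06 for ZSCAN22.

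The zinc finger transcripts carried most of their ZC3H7B clusters in the 3' UTR and divided their ZC3H7A clusters between 3' UTR and coding sequence. In the ZC3H7B library 821 of 1113 member clusters lay in the 3' UTR (73.8%, 71.1 to 76.3%) and 225 in coding sequence (20.2%, 17.9 to 22.7%). In the ZC3H7A library 284 of 567 lay in the 3' UTR (50.1%, 45.9 to 54.3%) and 235 in coding sequence (41.4%, 37.4 to 45.6%). Over all genes the 3' UTR held 55.8% of clusters in the ZC3H7B library and 39.8% in the ZC3H7A library. For ZNF genes these shares were 51.4% with ZC3H7B and 32.9% with ZC3H7A, so the members had the higher 3' UTR share in both libraries and the ZNF genes the lower. Coding sequence held 29.6% of all clusters in the ZC3H7B library and 42.7% in the ZC3H7A library, and for ZNF genes 30.8% with ZC3H7B and 48.8% with ZC3H7A. Coding sequence here is the region the tables call exon, listed apart from UTRs and start and stop codons, so exons of noncoding transcripts may be among it. No test was made of these differences, and the lengths of UTRs and coding sequences were not used.

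The families differed in this division. ZBTB genes had 80.1% of clusters in the 3' UTR in the ZC3H7B library (76.7 to 83.2%) and 53.1% in the ZC3H7A library (47.2 to 59.0%). ZKSCAN genes had 78.4% (71.4 to 84.4%) in the ZC3H7B library and 68.3% (57.1 to 78.1%) in the ZC3H7A library. For ZFP genes the share was 60.4% (53.0 to 67.5%) with ZC3H7B and 37.1% (29.1 to 45.7%) with ZC3H7A, and the coding share 31.0% with ZC3H7B and 48.6% with ZC3H7A. ZSCAN genes had 59.3% (51.0 to 67.3%) in the ZC3H7B library and 40.4% (27.6 to 54.2%) in the ZC3H7A library. The order of the families by 3' UTR share in the ZC3H7B library thus ran from ZBTB and ZKSCAN, whose intervals overlap, to ZFP and ZSCAN, whose intervals also overlap. The shares over all genes were 55.8% with ZC3H7B and 39.8% with ZC3H7A. In both libraries the intervals of ZBTB and ZKSCAN lay above these shares, while those of ZFP and ZSCAN held them.

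**Figure D3:**
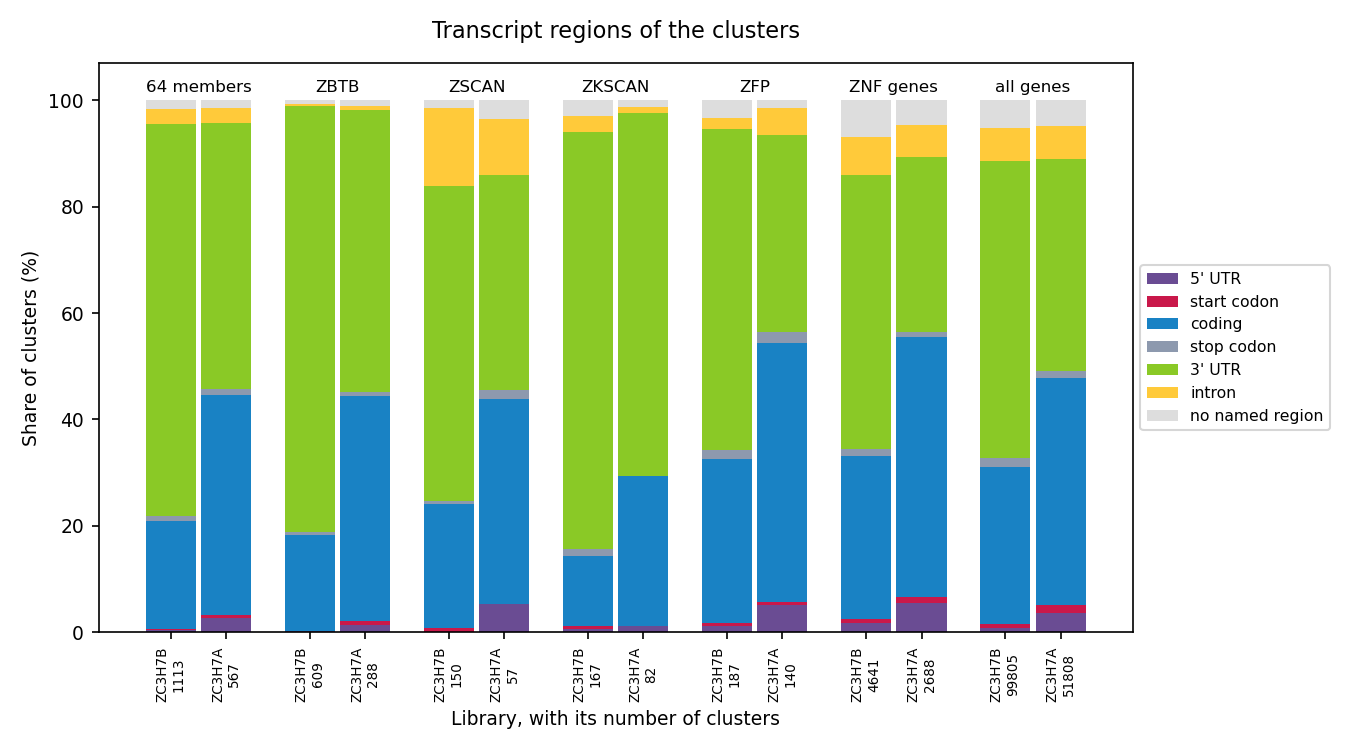
Share of clusters (%) by transcript region for the 64 members, their 4 families, ZNF genes and all genes, with the ZC3H7B library left of the ZC3H7A library in each pair and the number of clusters under each bar. The 3' UTR share of the members is 73.8% in the ZC3H7B library and 50.1% in the ZC3H7A library.

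The ZC3H7B library held more clusters in all. Over the 54 members listed in both the ratio of all clusters was 1.95 (1.76 to 2.16), and over all genes listed in both 1.87 (1.85 to 1.89). Numbers by region are to be read beside these ratios and not beside equal numbers. Over the 54 members listed in both, coding sequence held 220 clusters in the ZC3H7B library and 234 in the ZC3H7A library, a ratio of 0.94 (0.779 to 1.14). The 3' UTR held 808 clusters in the ZC3H7B library and 281 in the ZC3H7A library, a ratio of 2.88 (2.51 to 3.31). The coding ratio thus lay below that of all clusters, and the 3' UTR ratio above it. The same ratios over all 7218 genes listed in both were 1.31 (1.29 to 1.34) in coding sequence and 2.60 (2.55 to 2.64) in the 3' UTR, and over 287 ZNF genes 1.08 and 2.67. The number of 3' UTR clusters was larger in the ZC3H7B library for 49 of the 54 members, equal for 4 and smaller for 1. Over all 7218 genes listed in both it was larger for 5002 (69.3%), equal for 1751 and smaller for 465. The median member had more clusters than the median gene in both libraries, and the part of this in these counts was not tested. Coding clusters were more numerous in the ZC3H7B library for 19 members (background 42.5%), equal for 14 and less numerous for 21. Over all genes they were more numerous for 3068, equal for 2086 and less numerous for 2064. All 24 ZBTB genes, all 6 ZKSCAN genes and all 11 ZFP genes listed in both had more 3' UTR clusters in the ZC3H7B library. Among ZSCAN genes 8 of 13 had, 4 had equal numbers and ZSCAN18 had fewer. Clusters of all regions together were more numerous in the ZC3H7B library for 47 of the 54 members (87.0%, background 73.8%). These were all 24 ZBTB genes, 5 of 6 ZKSCAN genes, 9 of 11 ZFP genes and 9 of 13 ZSCAN genes. Over 287 ZNF genes, 80.1% had more 3' UTR clusters in the ZC3H7B library and 77.0% more clusters in all. The ZC3H7B library held more distinct reads in all, and the part of this in its cluster numbers was not tested.

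**Figure D4:**
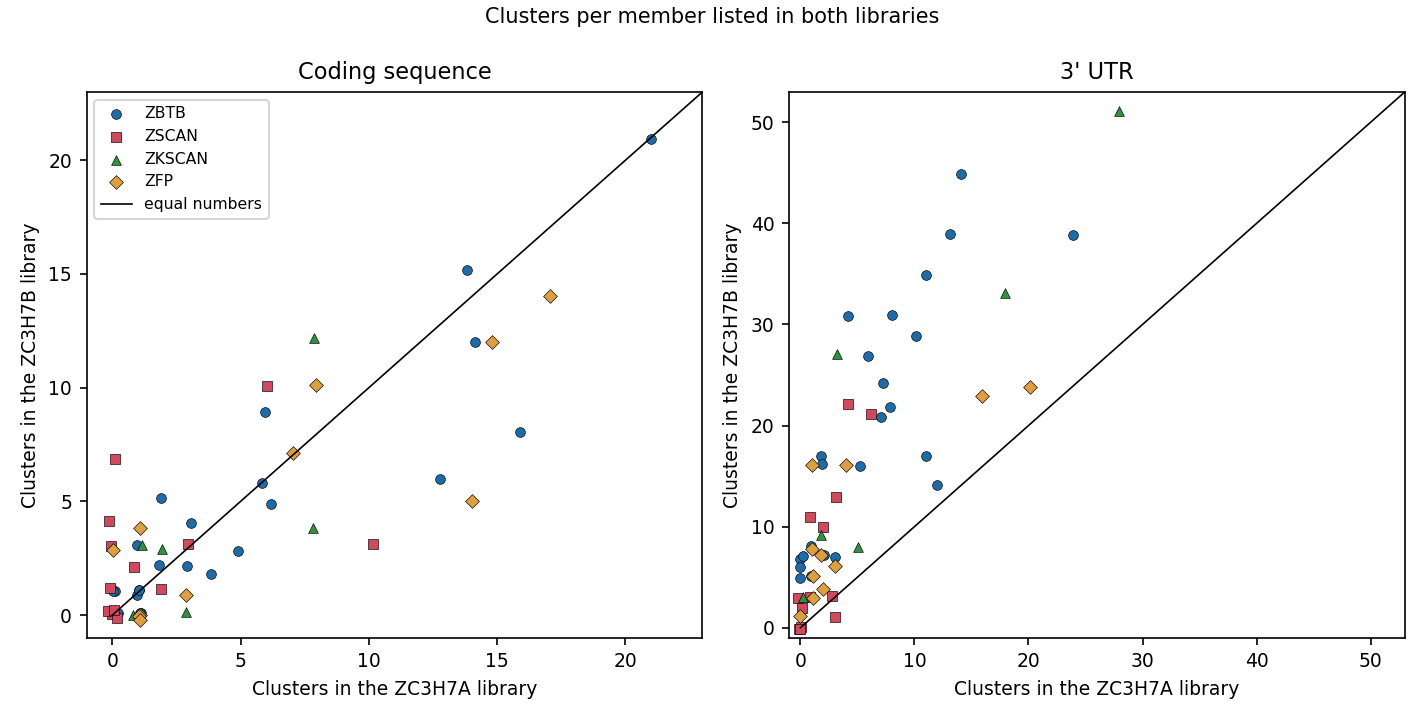
Number of clusters of each of the 54 members listed in both libraries, in coding sequence (left) and in the 3' UTR (right), with ZC3H7B on the vertical axis and ZC3H7A on the horizontal axis. Points are shifted slightly so that equal values can be seen. Points scatter about the line of equal numbers for coding sequence and lie above it for 49 members in the 3' UTR. The line is not adjusted for the larger number of clusters in the ZC3H7B library.

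Within single genes the coding share of clusters was lower in the ZC3H7B library for most members. Of 38 members with at least 3 clusters in both libraries, 31 had a lower coding share in the ZC3H7B library (81.6%, background 67.8%), 4 a higher share and 3 the same. The difference (ZC3H7B minus ZC3H7A) had a median of -18.9 percentage points, beside -10.0 over all genes and -13.6 over ZNF genes. Conversely, 33 of the 38 had a higher 3' UTR share with ZC3H7B (86.8%, background 69.2%). The median difference in 3' UTR share was 21.3 points, beside 11.1 over all genes and 17.5 over ZNF genes. Of 215 ZNF genes with at least 3 clusters in both libraries, 79.1% had a lower coding share with ZC3H7B and 77.7% a higher 3' UTR share. Few of the 38 members had enough clusters to separate their own intervals of coding share, which overlapped for 36 of the 38. The coding shares of the 38 members in the libraries had a Spearman's rho of 0.65, so genes with a higher coding share for ZC3H7B tended to have a higher one for ZC3H7A. This is a description over genes of the same pair of libraries.

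Among the 24 members with at least 8 clusters in both libraries, the 5 largest differences were in ZBTB, ZSCAN and ZFP genes. Members with fewer clusters differed by more in places, as did ZKSCAN4 with 3 clusters in each library. For ZBTB6, coding sequence held 6 of 33 clusters in the ZC3H7B library (18.2%, 6.98 to 35.5%) and 13 of 20 in the ZC3H7A library (65.0%, 40.8 to 84.6%). ZSCAN12 had 3 of 34 in the ZC3H7B library (8.82%, 1.86 to 23.7%) and 10 of 21 in the ZC3H7A library (47.6%, 25.7 to 70.2%). These were the 2 genes whose intervals did not overlap. In ZFP14 the coding clusters were 5 of 21 with ZC3H7B and 14 of 20 with ZC3H7A. In ZFP62 they were 10 of 21 with ZC3H7B and 8 of 9 with ZC3H7A. ZBTB11, needed for neutrophil development in zebrafish, had 12 of 30 with ZC3H7B and 14 of 20 with ZC3H7A. Only ZKSCAN8 and ZBTB37 went the other way among the 24 members with at least 8 clusters in both, by 2.63 and 2.17 points. Both had few coding clusters. ZKSCAN8 had 3 of 38 in the ZC3H7B library and 1 of 19 in the ZC3H7A library, and ZBTB37 had 1 of 46 with ZC3H7B and 0 of 14 with ZC3H7A.

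Other members differed less in coding share. ZBTB37 had 45 of 46 clusters in the 3' UTR in the ZC3H7B library and 14 of 14 in the ZC3H7A library. ZBTB34 had 31 of 32 in the ZC3H7B library and 8 of 9 in the ZC3H7A library. ZFP91 had 7 clusters in coding sequence in each library, of 32 in the ZC3H7B library and 29 in the ZC3H7A library. At the coding end, where shares still differed by about the members' median, ZBTB1, known for its role in lymphocyte development in mouse, had 15 coding clusters of 25 with ZC3H7B and 14 of 18 with ZC3H7A, and ZFP82 had 14 of 27 with ZC3H7B and 17 of 24 with ZC3H7A. ZBTB21, whose coding share differed by -26.8 points, had 21 coding clusters in each library but 35 clusters in the 3' UTR in the ZC3H7B library and 11 in the ZC3H7A library. ZBTB1 was named after its values were seen, as a gene of high coding share in both libraries. Its locus overlaps that of ZBTB25, with strand not considered, so whether the pair shares reads is uncertain.

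Members called higher in a library also differed in region. The 12 members higher in the ZC3H7B library had 222 of 263 clusters in the 3' UTR there (84.4%) and 53 of 83 in the ZC3H7A library (63.9%). The 9 members higher in the ZC3H7A library had 68 of 112 in the 3' UTR in the ZC3H7B library (60.7%) and 35 of 108 in the ZC3H7A library (32.4%), where 57 lay in coding sequence (52.8%). The 33 members called neither way lay between them, at 72.0% in the ZC3H7B library and 52.0% in the ZC3H7A library. These sets were made from the reads of the same clusters and carry no test. The same split was not made over all genes, so the pattern is not shown to be particular to the members.

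Introns held few clusters of the members, 33 of 1113 (2.96%) in the ZC3H7B library and 16 of 567 (2.82%) in the ZC3H7A library, beside 6.13% for ZC3H7B and 6.18% for ZC3H7A over all genes. Of the 4 families ZSCAN had the highest intronic share in each library, with 22 of 150 intronic clusters (14.7%, 9.43 to 21.4%) in the ZC3H7B library and 6 of 57 (10.5%, 3.96 to 21.5%) in the ZC3H7A library. In the ZC3H7B library a pair of genes held most of them. ZSCAN12 had 10 intronic clusters in the ZC3H7B library and 2 in the ZC3H7A library, and ZSCAN9 had 6 of its 8 clusters in introns in the ZC3H7B library and none of its 1 cluster in the ZC3H7A library. ZSCAN30 had 3 intronic clusters in the ZC3H7B library. ZKSCAN5 had 4 in the ZC3H7B library and 1 in the ZC3H7A library. ZFP30 had 0 intronic clusters of 38 with ZC3H7B and 4 of 38 with ZC3H7A.

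Clusters in the 5' UTR were rare, with 4 of 1113 (0.359%, 0.0980 to 0.918%) in the ZC3H7B library and 15 of 567 (2.65%, 1.49 to 4.33%) in the ZC3H7A library. Over all genes the shares were 0.772% for ZC3H7B and 3.61% for ZC3H7A. ZFP30 had 1 in the ZC3H7B library and 3 in the ZC3H7A library, and ZFP82 had 1 with ZC3H7B and 2 with ZC3H7A. ZBTB21 had 1 in each library, while ZKSCAN1 and ZFP14 had 1 each in the ZC3H7A library. Altogether 4 members had a 5' UTR cluster in the ZC3H7B library and 12 in the ZC3H7A library. Start codons held 3 member clusters in each library. Stop codons held 10 in the ZC3H7B library and 6 in the ZC3H7A library. ZBTB18 had 1 cluster at its stop codon in each library, and ZFP91 had 1 at its stop codon in each and 1 at its start codon in the ZC3H7A library. ZKSCAN5 had 1 at the start codon and 2 at the stop codon in the ZC3H7B library. Numbers this small allow no comparison between genes.

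T-to-C conversion was high on the members in both libraries. Each gene's mean over its clusters of the percentage of reads carrying a conversion had a median of 90.6% over 60 members in the ZC3H7B library and 95.9% over 58 members in the ZC3H7A library. All genes had medians of 91.1% for ZC3H7B and 97.4% for ZC3H7A. How much conversion the caller required is not given here. No member lay under 81.8% in the ZC3H7B library, where the lowest was ZSCAN25 (81.8%, on 297 reads), or under 65.7% in the ZC3H7A library, where the lowest were ZSCAN31 (65.7%, on 187 reads) and ZKSCAN4 (67.5%, on 137 reads). In the ZC3H7B library ZSCAN31 had 94.1% and ZKSCAN4 97.4%. Both were among the members higher in the ZC3H7A library. The shares of the other members higher there ran from 92.0% (ZFP14) to 100% (ZSCAN18 and ZSCAN21).

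Genes with the same domains under other names were listed in part. Their counts of called genes are to be set beside the shares over all genes, 18.2% higher with ZC3H7B and 18.0% with ZC3H7A by reads, and 7.28% and 10.1% by distinct reads, and with 5 to 12 genes a list they are descriptions only. Of 8 BTB zinc finger genes under other names, 6 had clusters, and 5 could be compared, with a median ratio of 2.02. Higher in the ZC3H7B library were 3 of the 5 and higher in the ZC3H7A library 0 (1 and 0 with distinct reads). HIC2, a repressor, had 370 reads in 26 clusters in the ZC3H7B library and 68 reads in 3 clusters in the ZC3H7A library, all of them in the 3' UTR, a ratio of 2.94 (2.56 to 3.33). MYNN had 225 reads in the ZC3H7B library and 484 in the ZC3H7A library, at -0.61 (-0.85 to -0.38), and ZNF131 had 616 for ZC3H7B and 589 for ZC3H7A, at 0.56 (0.39 to 0.72). Of 20 SCAN domain genes under other names, 12 could be compared, with a median of -0.01, 2 higher in the ZC3H7B library and 3 in the ZC3H7A library (0 and 2 with distinct reads). ZNF24 had the most reads among them, 2050 in the ZC3H7B library and 4166 in the ZC3H7A library, at -0.53 (-0.61 to -0.45). ZNF263 lay far to the ZC3H7A side, with 17 reads in the ZC3H7B library and 278 in the ZC3H7A library, at -3.54 (-4.34 to -2.83). It was named after its values were seen. HIC2 alone of the BTB genes was called with distinct reads. Genes named ZNF in these lists also count among the ZNF genes above.

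The repressor genes that these families are known to work with were spread on both sides. Their called counts stand beside the same shares over all genes, 18.2% higher with ZC3H7B and 18.0% with ZC3H7A by reads. By distinct reads these shares were 7.28% and 10.1%. Among KRAB corepressor and HUSH genes, 10 of 11 symbols were compared (the other is a newer name of FAM208A), with a median of 0.26, 2 higher in the ZC3H7B library and 2 in the ZC3H7A library, in reads and in distinct reads alike. TRIM28, the corepressor bound by KRAB domains, had 208 reads in the ZC3H7B library and 1594 in the ZC3H7A library, at -2.45 (-2.66 to -2.24). ATF7IP, a partner of the histone methyltransferase SETDB1, had 370 reads in the ZC3H7B library and 2675 in the ZC3H7A library, at -2.36 (-2.52 to -2.20). On the other side were MORC2 at 3.52 (2.89 to 4.21) and FAM208A at 1.72 (1.40 to 2.04), both of the HUSH silencing system and both named after their values were seen. Among BTB corepressor genes 9 of 12 were compared, with a median of 0.73, 1 higher in the ZC3H7B library and 0 in the ZC3H7A library (0 and 0 with distinct reads). That gene was NCOR1, named for this call, with 574 reads in the ZC3H7B library and 176 in the ZC3H7A library, at 2.20 (1.95 to 2.45), or 1.67 (0.98 to 2.45) with distinct reads. BCOR had 3576 reads in the ZC3H7B library and 2782 in the ZC3H7A library, at 0.86 (0.78 to 0.93), and its coding clusters were 33 of 43 with ZC3H7B and 29 of 38 with ZC3H7A.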

How the data were processed

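PAR-CLIP was done with 1 library for each protein, grouped by the sample titles. Each library has a table of genes that the authors deposited. The tools named in the submitters' processing notes are STAR 2.5.2a, Bowtie and cutadapt, and the build is hg19. The cluster caller, and what was done with reads matching several genes, is not given in the sources used here, and zinc finger arrays are alike between genes. Per the file headers, the deposited counts are clusters (in all and by region), reads and distinct reads summed over clusters. The T-to-C fraction the authors deposited is a median over clusters, and its sum over clusters, a score here, was divided by the number of clusters. The exon column was read as coding sequence. Rows naming repeats, tRNAs or other RNA classes (407 of 9566 rows for ZC3H7B and 282 of 8486 for ZC3H7A) were left out.

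Ratios have exact conditional binomial intervals, shares Clopper-Pearson intervals. No difference between proteins was tested. Members, lists and naming rule were chosen with earlier results of these data known. The rule names the genes with most reads, the highest and lowest ratios (at least 50 reads summed), those of a single library, those with the largest differences in coding share (at least 8 clusters in both) and the most clusters in rare regions, and the lowest conversion. Simulated data with known changes were used to check how ratios are computed and called. The simulated reads were independent counts without PCR copies, so the check does not cover the error that copies add in these libraries. Symbols were matched to RefSeq (GRCh38.p14), all 64 members among them, used for names and neighbours only. Protein features were not analysed here. Python 3.11.15 (pandas 2.3.3, numpy 2.4.6, scipy 1.17.1, matplotlib 3.10.9) was used, with edgeR 4.0.16 in R 4.3.3 for TMM scaling only.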

Additional observations from a re-analysis of the deposited data

How the results depend on the processing

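The members higher in a library (12 in ZC3H7B and 9 in ZC3H7A by reads) numbered 5 and 5 with distinct reads (7.28% and 10.1% of all genes), 5 and 0 by the mean number of reads in a cluster (6.18% and 4.65%), and 0 and 0 with numbers of clusters, where 23 and 16 of all 7168 genes were called. With TMM factors there were 11 and 9 (17.4% and 18.5% of all genes) and with library totals 18 and 9 (21.2% and 15.5%, median of all genes then 0.16). There were 12 and 9 with no minimum (18.1% and 18.0%), 11 and 8 with at least 100 reads (18.8% and 19.7%), and 13 and 13 with missing genes kept at 0 reads (24.0% and 23.5%). The median ratio of the members, 0.69, was 0.33 with clusters, 0.14 with mean reads per cluster, and between 0.58 and 0.84 under the other alternatives. Among named genes called by reads, ZKSCAN1 stood at -0.33 with clusters and ZSCAN32 at -0.02 with mean reads per cluster, each on the other side of 0. Some named genes not called by reads changed side as well, such as ZFP91, at 0.69 by reads and -0.78 with clusters. By mean reads per cluster ZFP91 was called higher in the ZC3H7B library, at 1.53, so 4 of the 5 called there were also called by reads. Of 19 genes named by the rule and called by reads, 10 were called with distinct reads and 4 with mean reads per cluster. ZBTB4 and ZBTB8A, called by reads but outside the rule, were called with neither. As medians over members with at least 3 clusters, the coding share was 15.6% in the ZC3H7B library and the 3' UTR share 81.6% in the ZC3H7B library and 54.8% in the ZC3H7A library. Over members listed in both these shares moved by less than their intervals. The median difference in coding share was -18.9 points with at least 3, 5 or 10 clusters. The deposited medians over clusters gave a T-to-C share of 100.0% in the ZC3H7A library. The causes were not tested. No paired analysis was possible because each protein had 1 library. Distinct reads, 132 for the median member with ZC3H7B and 18 with ZC3H7A, limit the precision of each ratio.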

Other observations

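Several members lie next to each other in the genome, which gives pairs of related genes from the same place. In the order of RefSeq coding genes by start, 12 members were followed directly by another member. Of the 64 members, 14 overlapped another coding gene, with strand not considered. ZFP14 and ZFP82 are such neighbours and had like ratios (-1.75 and -1.82), as had ZBTB43 and ZBTB34 (1.13 and 1.01). ZSCAN31 and ZKSCAN3, whose loci overlap, stood at -2.20 and -1.95. Whether they share reads is uncertain, as strand was not considered. Other neighbours stood apart. ZKSCAN1 stood at 1.10 and ZSCAN21, which follows it, at -3.35. ZBTB6 stood at -0.48 and ZBTB26 at 1.62. In the run ZSCAN16, ZKSCAN8, ZSCAN9 and ZKSCAN4 the ratios were -1.62, 0.95, 1.20 and -1.85, with no common direction. ZBTB8B was listed only for ZC3H7B, while its neighbour ZBTB8A was higher in the ZC3H7A library. Neighbours were named after their values were seen, and no test was made.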
